A study of Mus musculus with 3 samples.

Results

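The genes of fibrillar and type VI collagen chains, with a chain each of type VIII and type XII collagen, were followed through an epithelial to mesenchymal transition of mouse ovarian surface cells. The 10 genes were Col1a1, Col1a2, Col3a1, Col5a1, Col5a2, Col6a1, Col6a2, Col6a3, Col8a1 and Col12a1, and every probe carrying one of these names on the array was taken. This gave 10 probes of 20371 on the array, for 7 of the 10 genes and of 10008 gene symbols with a probe, since no probe was named Col1a1, Col3a1 or Col12a1. Col1a2, Col5a1 and Col6a3 had 2 probes each and the other 4 genes had 1. The 2 probes of a gene are called its brighter and its dimmer probe, by their mean signal.

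RNA was compared on 2-colour Agilent oligonucleotide arrays in 3 separate cultures of ovarian surface epithelium, the single cell layer that covers the ovary. The cells came from superovulated and mated virgin C57/Bl6 females, with no genetic modification named in the labels. Every culture was divided: some cells stayed in 2.5% fetal bovine serum and are labelled epithelial, and the rest spent 1 week in 15% serum and are labelled mesenchymal. Cells were collected at 80% confluence, labelling started from 4 µg of total RNA, and each culture's pair of RNAs went onto 2 arrays in opposite dye orientations, 6 arrays in all. The serum level and the cell state differ together throughout and cannot be told apart. In these bulk RNAs, fewer cells expressing a gene and less of its RNA per cell cannot be told apart either.

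Fibrillar collagens (types I, III and V) are triple helices that assemble into the fibres giving tissues tensile strength. Type I collagen is built from chains encoded by Col1a1 and Col1a2, and type V collagen, from Col5a1 and Col5a2, lies within type I fibrils and limits their diameter. Type VI collagen joins the products of Col6a1, Col6a2 and Col6a3 into beaded microfibrils between cells and matrix, type VIII collagen forms network-like sheets in basement membranes and vessel walls, and type XII collagen binds the surface of fibrils. Epithelial to mesenchymal transition is widely described as a change in which cells give up epithelial junctions and keratins and often deposit interstitial matrix.

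In mesenchymal cells, 4 of the 10 collagen probes were lower and 0 were higher. They belonged to Col1a2 (its brighter probe), Col5a2, Col6a1 and Col8a1, with mean log2 ratios from -3.18 to -0.83, while 6 probes did not pass the threshold. Of all 20185 probes tested, 5.66% were called lower, 5.6% higher and 11.3% in either direction, at a Benjamini-Hochberg adjusted p under 0.05 in limma. At an unadjusted p under 0.05, 4 of the 10 were lower and 1, the brighter Col5a1 probe, was higher, on 2 cultures. The share of all probes past this unadjusted threshold was not counted, so these counts stand without a background. The median log2 ratio of the 10 probes was -0.12, against -0.0032 over all probes tested. It was -0.83 with 1 probe per gene (7 probes), and -0.47 without culture 1 and -0.54 without culture 2, where 8 of the 10 could be tested. On all 6 arrays, 3 of the 10 were below 0 (Col1a2, Col6a1 and Col8a1), none was above 0 and 7 had mixed signs, whereas 5.67% of all probes tested were below 0 and 5.57% above 0 on every array. All 10 probes were well above background for both RNAs on all 6 arrays by the scanner's flag. Each value below is a log2 ratio, mesenchymal to epithelial, and ± gives the SD over cultures after averaging a culture's 2 arrays (n = 3 except where another n is given).

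**Figure D1:**
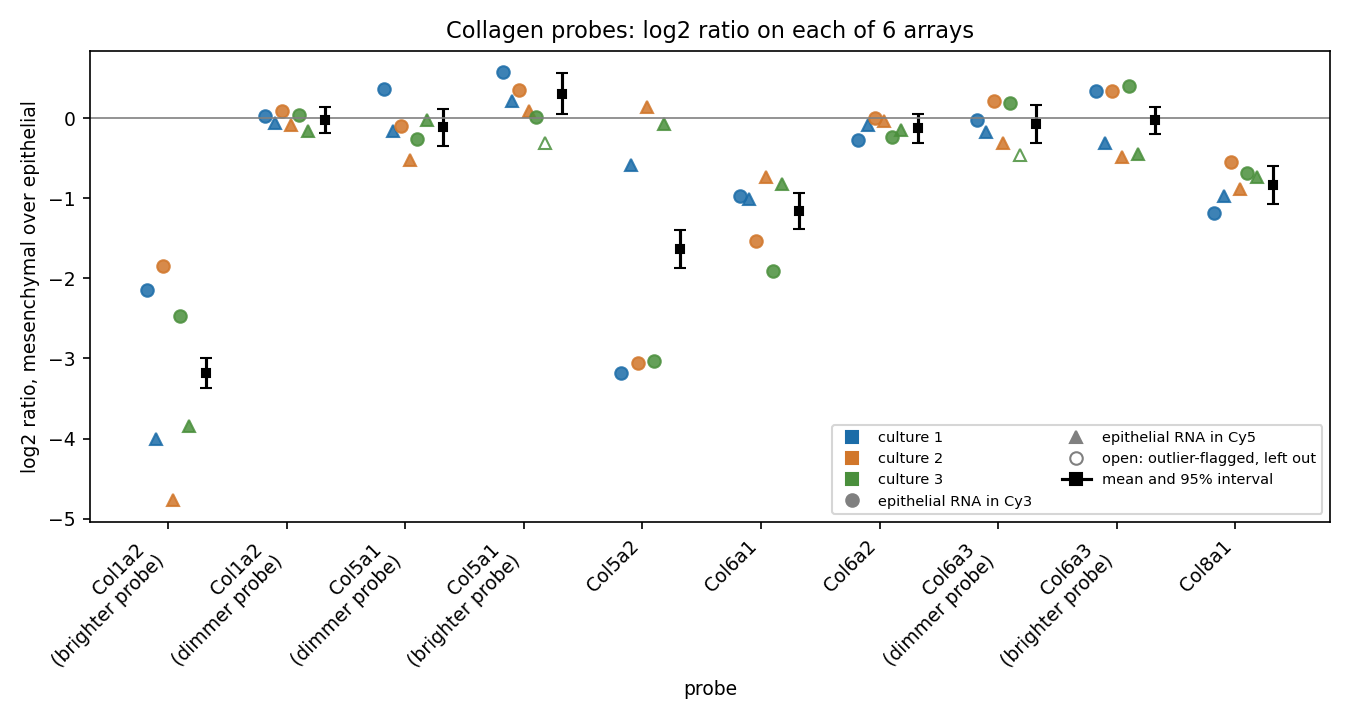
Log2 ratio of mesenchymal over epithelial RNA (vertical axis) for each of the 10 collagen probes (horizontal axis) on each of 6 arrays. Colours mark cultures, circles and triangles mark arrays with epithelial RNA in Cy3 and in Cy5, open symbols mark outlier-flagged spots that were left out, and black squares show the mean with its 95% confidence interval. The brighter Col1a2 probe, Col6a1 and Col8a1 lie below 0 on all 6 arrays, and Col5a2 separates by dye.

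The promoters of 3 of the 4 called genes are shown first, since these genes fell together and their upstream sequences can be set side by side. They are the 250 bases before the annotated start of Col1a2, Col6a1 and Col8a1 from RefSeq (build GRCm38.p6). Capitals mark matches to the CCAAT box, to the GC box GGGCGG (or, from the opposite strand, CCGCCC), or to the AP-1 motif TGANTCA, where N is any base. Each sequence is written in the gene's own direction, and the last base lies next to the start.

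Col1a2 (chr6:4505368-4505617, plus strand): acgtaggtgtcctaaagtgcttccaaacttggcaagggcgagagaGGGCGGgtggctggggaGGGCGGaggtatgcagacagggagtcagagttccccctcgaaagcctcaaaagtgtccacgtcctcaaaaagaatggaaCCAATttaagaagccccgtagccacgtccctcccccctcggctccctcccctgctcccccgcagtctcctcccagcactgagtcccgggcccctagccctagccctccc
Col6a1 (chr10:76726045-76726294, minus strand): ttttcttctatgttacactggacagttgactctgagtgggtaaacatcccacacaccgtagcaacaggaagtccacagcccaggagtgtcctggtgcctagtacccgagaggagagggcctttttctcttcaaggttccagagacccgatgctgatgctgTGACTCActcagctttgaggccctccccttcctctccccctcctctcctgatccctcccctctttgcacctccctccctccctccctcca
Col8a1 (chr16:57754738-57754987, minus strand): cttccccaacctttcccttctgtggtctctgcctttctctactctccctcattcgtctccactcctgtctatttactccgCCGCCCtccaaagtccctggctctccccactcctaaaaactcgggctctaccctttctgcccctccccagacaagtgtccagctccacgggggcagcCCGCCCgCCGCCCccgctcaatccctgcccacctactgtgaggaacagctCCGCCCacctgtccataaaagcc

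The Col1a2 promoter held a CCAAT 109 to 105 bases before the start and GGGCGG at 205 to 200 and 188 to 183 bases. In the Col6a1 promoter the only match was TGACTCA, 90 to 84 bases before the start, a form of the AP-1 motif. The Col8a1 promoter held CCGCCC at 4 places. Over 32851 promoter windows of the same 250 bases, both strands searched, CCAAT was in 33.8%, GGGCGG in 32.7%, TGANTCA in 6.75%, TATAAA in 12.4% and GTCTAGAC in 0.167%. Entries for the 10 genes covered 7 of them with 8 promoters, of which 1 held CCAAT (Col1a2), 5 held GGGCGG, 1 held TATAAA (Col3a1), 1 held TGANTCA (Col6a1) and 0 held GTCTAGAC. GGGCGG stood before Col1a2 and Col8a1, which were called, and before Col5a1 and Col6a2, whose named probes were not. A match is a description of letters in this window and not a binding site.

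Col1a2 encodes the alpha 2 chain of type I collagen, the main fibrillar collagen. On arrays with epithelial RNA in Cy3, its brighter probe gave log2 ratios of -2.15, -1.84 and -2.48 in cultures 1, 2 and 3. With epithelial RNA in Cy5 the same cultures gave -4.01, -4.77 and -3.84. Every array was below 0, and the 2 orientations did not overlap. Averaged within cultures the values were -3.08, -3.31 and -3.16, so the dye difference cancelled and the cultures lay close together. The mean was -3.18 ± 0.12 (95% confidence interval -3.37 to -2.99), a measured 9.07-fold lower level (limma adjusted p = 0.000116), with the epithelial spots of 4 of the 6 arrays saturated.

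The epithelial signal of this probe reached the scanner's ceiling. In cultures 2 and 3 it was 65260 to 65285 on all 4 arrays, with 100% of the spot's pixels saturated, while the mesenchymal signal was between 3057 and 14350 there. In culture 1 no pixel was saturated: the epithelial signal was 39324 in Cy3 and 59028 in Cy5, and the mesenchymal signal was 9276 and 5496 on the same arrays. Saturation of the brighter RNA makes a measured fall smaller, and the unsaturated culture gave -3.08. With saturated spots left out only culture 1 remained, so no test could be made.

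The dimmer Col1a2 probe did not show this fall. Its arrays with epithelial RNA in Cy3 gave 0.033, 0.095 and 0.038, and those with it in Cy5 gave -0.055, -0.083 and -0.15. The signs followed the dye, and the mean was -0.021 ± 0.033 (95% confidence interval -0.19 to 0.15, limma adjusted p = 0.908). Its signal ran from 536 to 2872 over both RNAs, with no saturated pixel. A second annotation version, deposited with 1 of the arrays, described this clone only as similar to Col1a2. The fall of Col1a2 therefore rested on 1 of 2 probes, and which of them reads the Col1a2 transcript was not tested.

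The named genes whose values over the 3 cultures were closest to those of the brighter Col1a2 probe included Gpm6a and Krt14. By root mean square difference in log2 ratio among 10023 named probes, the nearest were Gpm6a (0.231), Krt14 (0.235), Tenm4 (0.267), Cyria (0.530) and Dmd (0.758). Gpm6a encodes a membrane glycoprotein found in mesothelium and ovarian surface cells, and its cultures were at -2.86, -3.23 and -2.83. Krt14 encodes a keratin of stratified and basal epithelia, and its cultures were at -3.18, -3.59 and -2.89. This measure weighs the size of a change, so it ranks first the probes with a measured fall closest to that of Col1a2. Cyria and Dmd fell less than the Col1a2 probe, at -2.68 and -2.44. The Col1a2 values of cultures 2 and 3 come from saturated epithelial spots, so these distances and their order rest on capped values.

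No probe was named for Col1a1, the partner chain of Col1a2, or for Col3a1, the chain of type III collagen. A clone that the second annotation calls similar to a mouse type I alpha 1 chain precursor had culture values of -0.040, -0.18 and 0.047. Its mean was -0.057 ± 0.11 (limma adjusted p = 0.765), and its signals between 954 and 6479 were unsaturated. A clone described there as the mouse Col3a1 gene was below 0 on all 6 arrays, from -1.37 to -0.39. Its mean was -0.92 ± 0.12 (limma adjusted p = 0.00163), at the low signals of 145 to 376, and -1.73 with Agilent's processed signals in place of the normexp background correction, while the main annotation describes the same clone as weakly similar to a phosphatase. These clones were chosen after the annotations were read and are not counted among the 10 probes.

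Type V collagen needs the products of both Col5a1 and Col5a2 in its usual form. The Col5a2 probe was strongly tied to the dye. With epithelial RNA in Cy3 it gave -3.18, -3.06 and -3.04 in cultures 1, 2 and 3, and with epithelial RNA in Cy5 it gave -0.58, 0.14 and -0.070. The epithelial signal was 9061, 8710 and 7026 when read in Cy3 but 1467, 1912 and 378 in Cy5, whereas the mesenchymal signal ran from 524 to 2538 over both dyes. The fall was thus large in 1 orientation and near 0 in the other. Its dye effect, the mean of a culture's unturned ratios, was -1.46 ± 0.15 as Cy5 over Cy3 (limma adjusted p = 4.9e-06). The culture means of -1.88, -1.46 and -1.55 averaged to -1.63 ± 0.22, a 3.10-fold lower level (limma adjusted p = 0.000533).

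In the fit on separate channels without the replicate block, Col5a2 was not called (adjusted p = 0.581, at the same -1.63). Another clone, called similar to mouse Col5a2 by the second annotation, was at -0.015 ± 0.095 (limma adjusted p = 0.940), with dim signals of 157 to 403. The second annotation describes the named Col5a2 probe by a RIKEN cDNA that RefSeq lists as a synonym of Col5a2. The dye effect was past the threshold for 4 of the 10 collagen probes and for 57.7% of all probes tested, and for 4 of the 10 it exceeded the size of the mesenchymal change. The share of all probes with a dye effect larger than their change was not counted, so this last count stands without a background.

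The partner gene Col5a1 showed no call. Its brighter probe gave 0.58, 0.35 and 0.013 with epithelial RNA in Cy3, and 0.21 and 0.091 in cultures 1 and 2 with it in Cy5. The remaining spot, at -0.31, was outlier-flagged and left out together with culture 3. The mean over the other 2 cultures was 0.31 ± 0.12 (n = 2, 95% confidence interval 0.056 to 0.56, limma adjusted p = 0.135), and 0.16 over 3 cultures with that spot kept (limma adjusted p = 0.510). The dimmer probe, at signals of 160 to 467, had culture values of 0.11, -0.31 and -0.14 and a mean of -0.11 ± 0.21 (limma adjusted p = 0.598). Without culture 1 this dimmer probe was called lower, at -0.22 (limma adjusted p = 0.0230), in a fit that called 5875 of 18192 probes. The 2 Col5a1 probes had means of opposite sign, neither past the threshold.

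A further clone carries an older name that RefSeq lists as a synonym of Col5a1. Like Col5a2 it was lower in 1 dye orientation: the Cy3 arrays for epithelial RNA gave -2.34, -1.09 and -0.12, and the Cy5 arrays gave -0.016, 1.29 and, outlier-flagged, 0.51. Its 2 measured cultures were at -1.18 and 0.098, with a mean of -0.54 ± 0.90 (n = 2, limma adjusted p = 0.389) and a dye effect of -1.17. Col5a3, which encodes a less common type V chain, was at -0.12 ± 0.17 (limma adjusted p = 0.548). Of the type V chain probes, only the named Col5a2 probe passed the threshold.

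**Figure D2:**
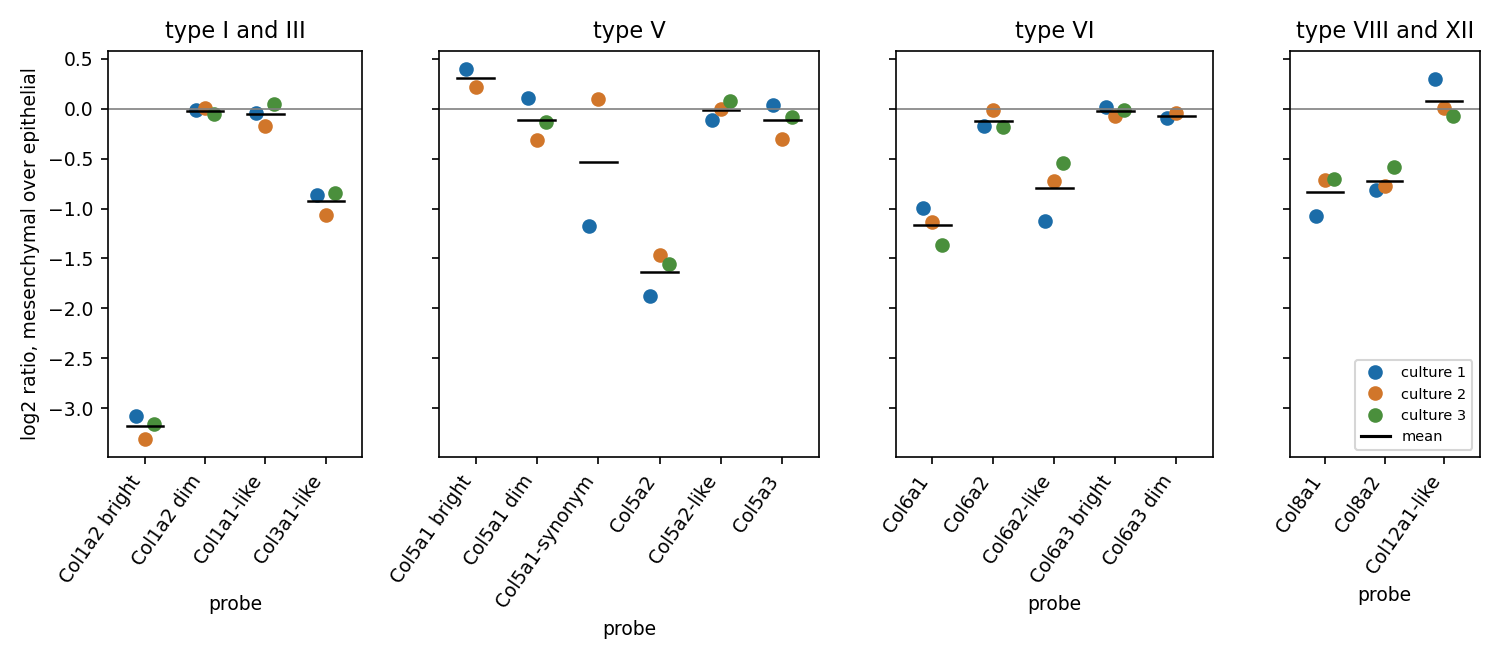
Log2 ratio of mesenchymal over epithelial RNA (vertical axis) per culture for probes grouped by collagen type (panels), including clones tied to one of the genes by annotation (marked -like or -synonym) and the partner chains Col5a3 and Col8a2. Points are cultures and lines are means. Within types I, V and VI some probes of partner chains, or of the same chain, lie near 0 while others fall, and Col8a1 and Col8a2 fall by similar amounts.

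Col6a1 encodes the alpha 1 chain of type VI collagen. In cultures 1, 2 and 3 its probe gave -0.98, -1.54 and -1.91 with epithelial RNA in Cy3, and -1.01, -0.73 and -0.82 with it in Cy5. All 6 arrays were below 0. The epithelial signal ran from 18741 to 51061 and the mesenchymal signal from 8030 to 25608, with no saturated pixel. The mean was -1.16 ± 0.19 (95% confidence interval -1.39 to -0.94), a 2.24-fold lower level (limma adjusted p = 0.00123). Its dye effect was smaller than the change, at -0.31 ± 0.29 (limma adjusted p = 0.0306).

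Col6a2, the alpha 2 chain that assembles with the Col6a1 product, had its named probe near the scanner's ceiling in both RNAs. The epithelial signal was 36856 to 62894 and the mesenchymal signal 31420 to 65287, with some saturated pixels on 2 arrays for each RNA and a fully saturated mesenchymal spot on 1 array. The array ratios lay between -0.27 and 0.0081. The mean was -0.12 ± 0.099 (95% confidence interval -0.31 to 0.059, limma adjusted p = 0.420). Without saturated spots it was -0.093 (limma adjusted p = 0.689).

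A clone that the second annotation calls similar to mouse Col6a2 was not saturated. Its signals ran from 8846 to 28828 for epithelial RNA and from 5560 to 19772 for mesenchymal RNA. It was below 0 on all 6 arrays: -0.78, -0.49 and -0.26 with epithelial RNA in Cy3 and -1.48, -0.96 and -0.82 with it in Cy5. The mean was -0.80 ± 0.30, a 1.74-fold lower level (limma adjusted p = 0.0109, and 0.573 on separate channels without the replicate block). This clone was also chosen after the annotations were read. Of the 6 clones tied to the listed genes in this way, 2 were called lower (the Col3a1-like and Col6a2-like clones) and 4 were not called.

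Col6a3 encodes the largest chain of type VI collagen. Its brighter probe gave 0.35, 0.34 and 0.41 with epithelial RNA in Cy3 and -0.30, -0.49 and -0.44 with it in Cy5. The sign was set by the dye in every culture, and the dye effect was 0.39 ± 0.056 (limma adjusted p = 0.000950). The mean over cultures was -0.022 ± 0.047 (95% confidence interval -0.19 to 0.15, limma adjusted p = 0.904). The dimmer probe, at signals of 240 to 755, was at -0.071 ± 0.035 over 2 cultures (95% confidence interval -0.30 to 0.16, limma adjusted p = 0.754), with its outlier-flagged spot in culture 3 left out. For Col6a3 both probes lay near 0, and their intervals do not reach the mean of Col6a1.

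Col8a1 encodes a chain of the short-chain, network-forming type VIII collagen. Its probe gave -1.18, -0.55 and -0.68 in cultures 1, 2 and 3 with epithelial RNA in Cy3, and -0.97, -0.88 and -0.73 with it in Cy5. All 6 arrays were below 0 and the orientations overlapped. The epithelial signal ran from 1030 to 3040 and the mesenchymal signal from 598 to 2117. The mean was -0.83 ± 0.21 (95% confidence interval -1.07 to -0.59), a 1.78-fold lower level (limma adjusted p = 0.00464, and 0.0789 on separate channels without the replicate block). The dye effect was 0.027, the smallest of the 10 probes in size.

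Its partner chain Col8a2, whose probe was named through a RefSeq synonym, was below 0 on all 6 arrays, at -0.72 ± 0.12 (limma adjusted p = 0.00367). A clone called similar to Col12a1, for which no named probe existed, was at 0.077 ± 0.19 (limma adjusted p = 0.734), with signals between 157 and 868.

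**Figure D3:**
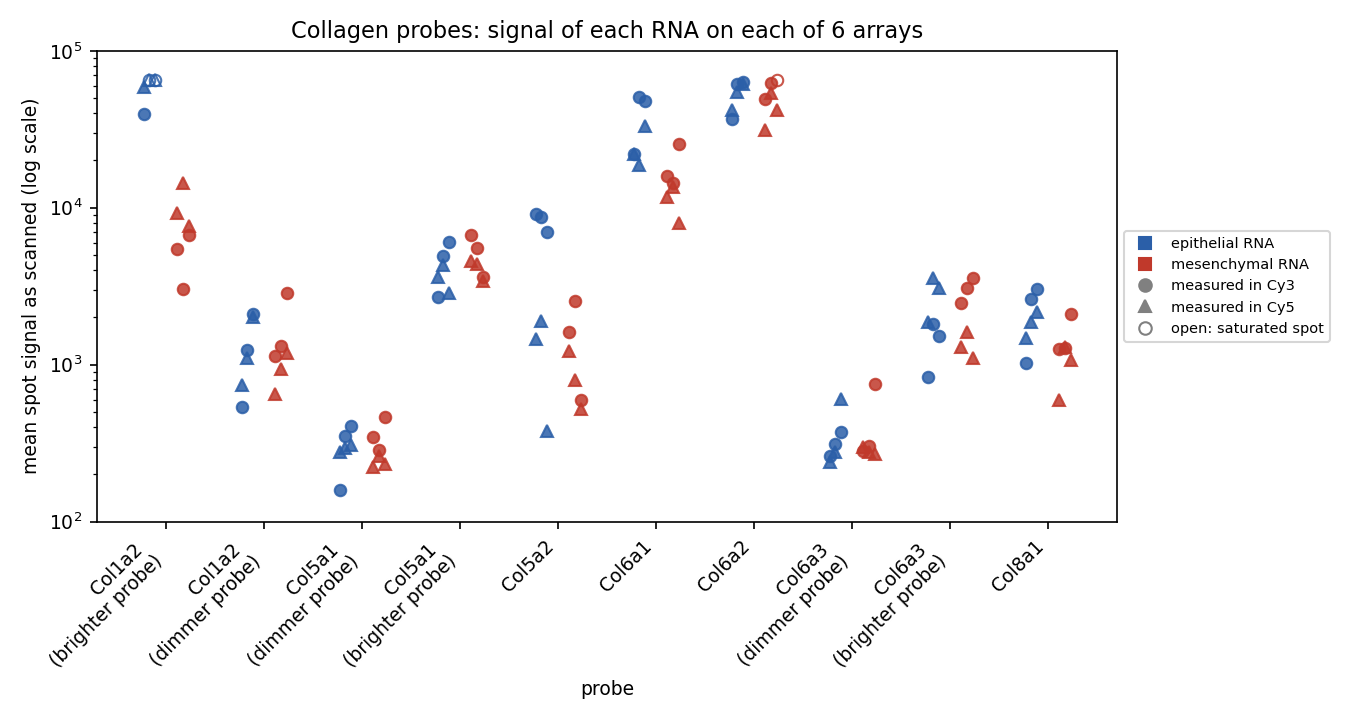
Mean spot signal as scanned (vertical axis, log scale, scanner units) of epithelial RNA (blue) and mesenchymal RNA (red) for the 10 collagen probes on each of 6 arrays. Circles and triangles mark measurement in Cy3 and Cy5 and open symbols mark saturated spots. The brighter Col1a2 probe is saturated for epithelial RNA on 4 arrays, Col6a2 lies near the ceiling in both RNAs, and the epithelial signal of Col5a2 is several times higher in Cy3 than in Cy5.

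Among the other collagens, 7 of 15 probes for 13 genes were lower and 0 were higher in limma, also at an unadjusted p under 0.05, with a median log2 ratio of -0.20. The largest falls were in the type IV chains, which build basement membranes. Col4a6 fell by 1.95 ± 0.27, Col4a1 by 1.42 ± 0.075, Col4a2 by 1.39 ± 0.33 and Col4a5 by 0.89 ± 0.25 (limma adjusted p between 0.000336 and 0.00503). Epithelial signal was saturated on 2 arrays for Col4a1 and on 3 for Col4a2, so neither could be tested without saturated spots. Col4a5 was tied to the dye: its arrays gave -1.97, -1.84 and -1.58 with epithelial RNA in Cy3 and -0.36, 0.29 and 0.16 with it in Cy5. Its dye effect of -0.91 was larger in size than the change, and it was not called on separate channels without the replicate block (adjusted p = 0.328). Both probes of Col18a1, whose product is a basement membrane collagen, were also called, at -0.82 (n = 2) and -0.65. The cartilage collagen genes Col2a1 and Col9a3 and both Col14a1 probes were not called. Neither were Col15a1, at -0.20 (n = 2, limma adjusted p = 0.311), and Col6a4, a further type VI chain, at 0.084 (limma adjusted p = 0.616).

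Enzymes and chaperones that fold, modify, export, trim and crosslink collagen were lower in 11 of 34 probes and higher in 1 (Loxl4), with a median of -0.13. Among those called lower, Plod1 and a Plod2 probe averaged -1.27 and -1.09 with epithelial RNA in Cy3. With it in Cy5 they averaged above 0, at 0.18 and 0.29. Both probes of Lox, the copper enzyme that starts collagen crosslinks, were lower, at -1.68 ± 0.25 and -1.58 ± 0.21 (limma adjusted p = 0.000652 and 0.000547). The first of these was saturated for epithelial RNA on 2 arrays and could not be tested without saturated spots, and the second held no saturated pixel. All 6 arrays of the second probe were below 0, but its dye orientations did not overlap. They gave -2.55, -2.57 and -2.45 with epithelial RNA in Cy3 and -1.10, -0.41 and -0.41 with it in Cy5. The dye effect of that probe was -0.94, against a change of -1.58. Serpinh1, the collagen chaperone HSP47, was at -1.01 ± 0.26 (limma adjusted p = 0.00350), with 1 saturated epithelial spot, and at -0.95 without that culture's value (n = 2, limma adjusted p = 0.0153). P4ha1 encodes a catalytic subunit of prolyl 4-hydroxylase, which stabilises the triple helix. Its 2 probes disagreed, at -1.21 ± 0.022 (n = 2, limma adjusted p = 0.00225) and -0.091 ± 0.15 (limma adjusted p = 0.632). The arrays of the 2 cultures behind the first value ran from -1.62 to -0.76. The epithelial signal of that probe reached 8125, whereas that of the other probe was dim, at 190 to 391. On separate channels without the replicate block Serpinh1 (adjusted p = 0.531) and P4ha1 (adjusted p = 1.00) were not called. Of the 40 genes listed, 27 had a probe.

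Receptors, matrix partners and degrading enzymes of collagen went both ways, with 5 of 31 probes lower, 3 higher and a median of -0.039. Fmod and Ogn, small leucine-rich proteins of the matrix of which fibromodulin binds collagen fibrils, were at -2.25 ± 0.027 and -2.05 ± 0.19 (limma adjusted p = 0.000116 and 0.000243). All 6 arrays of Fmod were below 0, but they ran from -2.96 to -1.48, with both ends in culture 3. Its dye effect was -0.25 ± 0.46. The small SD of Fmod is that of the culture means and does not show close agreement between single arrays. Mmp2, a gelatinase gene, was at -1.08 ± 0.092 (n = 2, limma adjusted p = 0.00355). On separate channels without the replicate block Fmod (adjusted p = 0.607) and Mmp2 (adjusted p = 0.115) were not called. Ogn was below 0 on all 6 arrays, averaging -2.91 with epithelial RNA in Cy3 and -1.19 with it in Cy5 (dye effect -0.86). Tgfbi, which encodes a collagen-binding matrix protein, rose by 1.69 ± 0.47 (limma adjusted p = 0.00283). The other called rises were Antxr2, a receptor that binds collagen, at 0.82, and Mrc2, an endocytic collagen receptor, at 0.53, both named after their values were seen. In this list 22 of 35 genes had a probe. Its 2 probes for Bgn and Fn1 at the ceiling were saturated for both RNAs on all 6 arrays, as was P4hb in the list of enzymes. These 3 have no usable ratio. Sparc was saturated for epithelial RNA on all 6 arrays and for mesenchymal RNA on 2. Pcolce, in the list of enzymes, was saturated for mesenchymal RNA on all 6 and for epithelial RNA on 3. The ratios of Sparc and Pcolce, neither of them called, are therefore capped.

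**Figure D4:**
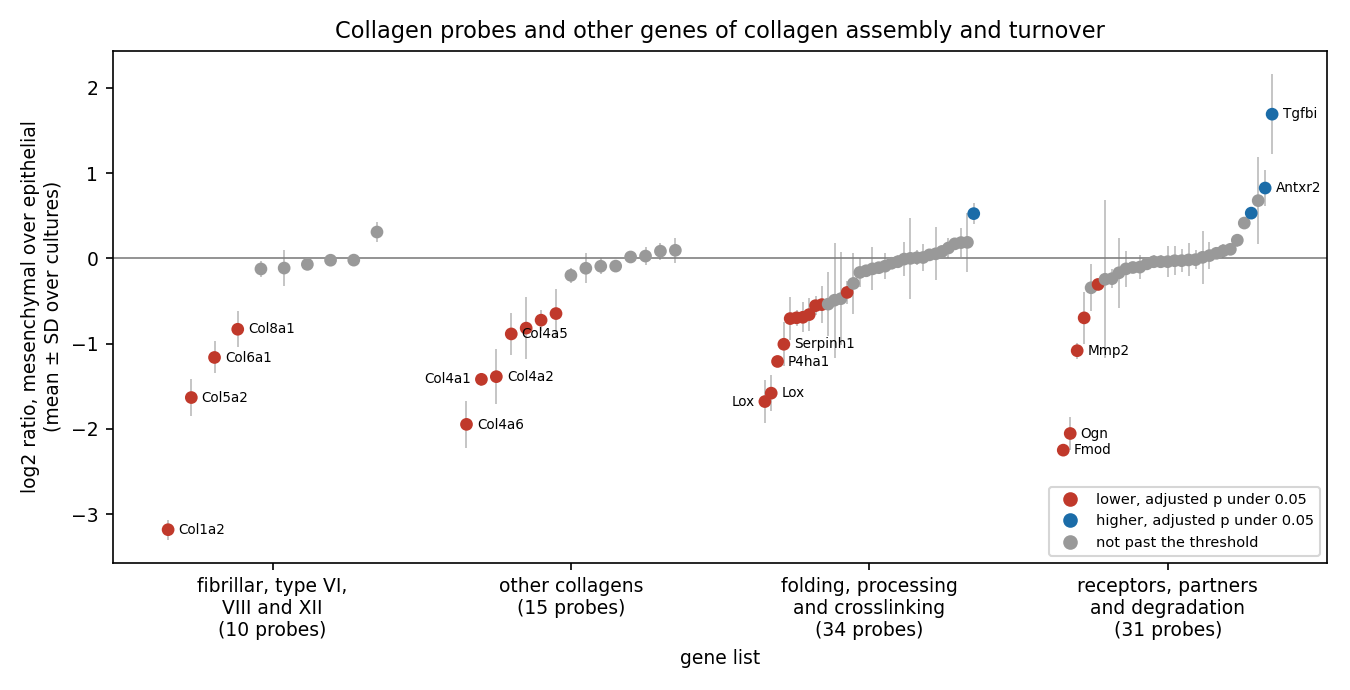
Log2 ratio of mesenchymal over epithelial RNA (vertical axis, mean ± SD over cultures) for the 10 collagen probes and 3 lists of related genes (horizontal axis), each sorted from lowest to highest. Red and blue mark probes past the threshold, lower and higher, and grey marks the others. Called probes are mostly below 0 among the collagens and the folding and crosslinking genes, and lie on both sides of 0 among receptors and partners.

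Markers of the labelled cell type were read beside those of other cell types. All 11 probes for ovarian surface epithelium were well above background for both RNAs on all 6 arrays. So was every probe of the other marker lists, and this flag therefore does not tell cell types apart. Of the 11 surface epithelium probes, 7 were lower and 0 higher in mesenchymal cells. Their summed signal was 291161 to 410414 for epithelial RNA and 125980 to 238402 for mesenchymal RNA. These sums are capped by saturated spots. For epithelial RNA the Krt7 probe at -1.83 was saturated on 6 arrays, the Krt8 probe at -0.32 on 3 and Krt19 on 2. That Krt8 probe was also saturated for mesenchymal RNA on 3 arrays. Fibroblast markers were lower in 1 of 4 probes (Pdgfra) and higher in 0, with summed signals of 22066 to 51184 and 15243 to 46936. Pdgfra, at -0.84, was tied to the dye. It gave -1.85, -1.72 and -1.76 with epithelial RNA in Cy3 and -0.44, 0.36 and 0.40 with it in Cy5. Its dye effect of -0.94 was larger in size than the change. Smooth muscle markers were lower in 1 of 4 (Acta2, saturated for epithelial RNA on 5 arrays) and higher in 0, at 50161 to 83465 and 28677 to 50383. The granulosa list had 2 of 9 lower and the oocyte list 1 of 5 tested higher (Ddx4), while the theca, endothelium and leukocyte lists had 0 calls in limma. Of the granulosa calls, Inhba at -0.88 was tied to the dye, with a larger dye effect of -1.63. It gave -2.43, -2.55 and -2.54 with epithelial RNA in Cy3 and 0.12, 1.22 and 0.90 with it in Cy5. Summed epithelial signals were 13354 to 50018 for granulosa, 6850 to 28823 for oocyte and 5806 to 31719 for leukocyte markers. They were 2329 to 7014 for theca and 2972 to 11777 for endothelium. At an unadjusted p under 0.05 in limma, 11 of 11 surface epithelium, 3 of 4 fibroblast, 2 of 4 smooth muscle and 2 of 9 granulosa probes were lower. None of these 4 lists had a probe higher. The theca list had 1 probe lower, the endothelium list 1 lower and 1 higher, the leukocyte list 0, and the oocyte list 1 higher. No share of all probes was counted at this unadjusted threshold, so these counts cannot be set against a background. The part of these markers in the collagen values was not tested.

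Across probes, which are not replicates, the correlation of log2 ratios was 0.88 between cultures 2 and 3, while culture 1 reached 0.60 with culture 2 and 0.63 with culture 3. Single arrays of opposite orientation correlated between -0.53 and -0.14 after turning, and those of the same orientation between 0.81 and 0.93. On the array of culture 3 with epithelial RNA in Cy5, outlier flags covered 1639 probes, compared with 61 to 467 elsewhere, and it was there that Col5a1 and Col6a3 lost a spot.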

How the data were processed

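The 10 genes and all gene lists were chosen with earlier results of these data known. The deposited intensities are mean spot signals with their local backgrounds, which per the file headers come from Agilent Feature Extraction. The processed intensities and the log10 ratios were computed by that software and deposited by the authors, and the authors' value table equals the turned mean of a culture's 2 log10 ratios. limma is named in the submitters' processing notes, without version. Which RNA carried which dye came from the names of the deposited arrays.

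Intensities were corrected with normexp (offset 50) and loess-normalised within arrays in limma 3.58.1 (R 4.3.3), control spots at weight 0, giving log2 ratios from the deposited intensities. Arrays were turned and averaged per culture. Spots with an outlier flag were dropped, a culture needed both of its arrays, and a probe needed at least 2 cultures. A probe had to be well above background for the same RNA on at least 4 arrays, which removed 43. This filter is weak, since 22.5% to 72.2% of negative controls carried the flag. Of 20185 probes tested, 2476 rested on 2 cultures. Each probe was tested against 0 with lmFit and eBayes, two-sided, with Benjamini-Hochberg adjustment over all of them. The dye effect was tested alike. Steps were tested on simulated data. Saturated spots were kept. The number of arrays limits the precision. Names came from gene IDs, current symbols or synonyms in RefSeq GRCm38.p6. Where these gave none, 1256 probes kept the array's own name, which the count of gene symbols includes, and 7739 were unnamed.

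Besides every collagen probe, the rule named up to 4 called probes per list with the largest change and the 5 probes nearest to the brighter Col1a2 probe. Partner chains and other list genes were named after their values were seen. Protein and probe sequences were not used here. Alternatives covered background correction, normalisation, the filter, outliers, saturation, the replicate block, the variance model and leaving out cultures.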

Additional observations from a re-analysis of the deposited data

How the results depend on the processing

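No called single value changed direction under the alternatives run; means near 0 that were not called changed sign for the brighter Col6a3 probe and the Col1a1-like, Col5a2-like and Col12a1-like clones. Of 150 alternative values of the 10 collagen probes, 147 kept their side of the threshold, 2 lost their call and 1 (the dimmer Col5a1 probe without culture 1) gained one. On separate channels with no replicate block, 256 probes were called (141 lower), 2 of the collagen probes (Col1a2 and Col6a1), 3 of the other collagens, 2 processing probes and 2 receptor and partner probes, against 2272, 4, 7, 12 and 8. Col4a5, P4ha1, Serpinh1, Fmod, Mmp2 and the Col6a2-like clone also lost their calls there. With all 6 arrays, a dye coefficient and the culture as a replicate block, 2810 probes and 4 of the collagen probes were called, and the receptor and partner list went from 5 lower and 3 higher to 4 lower and 5 higher. Without culture 1, 5875 of 18192 probes tested were called, 2604 lower and 3271 higher against 1142 and 1130 in the main fit. The calls were 1163 of 18140 without culture 2 and 809 of 19271 without culture 3. In the same order, collagen probes called lower were 5 of 8, 4 of 8 and 4 of 10. Processing probes called were 14 of 31, 12 of 33 and 5 of 32, and receptor and partner probes 12 of 25, 6 of 25 and 5 of 29. The list counts without culture 1 stand beside a larger share called over all probes than in the main fit. At an adjusted p under 0.01, 963 probes were called. Without saturated spots 3 of 9 testable collagen probes were lower, and without spots holding any saturated pixel, an alternative chosen after seeing the data, 3 of 8. The brighter Col1a2 probe, Col4a1, Col4a2 and the Lox probe at -1.68 could not be tested without saturated spots. Beyond the constructions named, the cause of these differences was not tested.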
